A study of Mus musculus with 12 samples.

Results

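The 6 genes described here make, move and break down dopamine: Th, Ddc, Slc18a2, Slc6a3, Maoa and Maob. They were chosen by name as the core enzymes and transporters of dopamine handling, not by their values, and they are 6 of the 24421 genes of the count table. All 6 were found there, and 5 had enough counts to be tested. RNA sequencing was done on whole bilateral striatum from male C57BL/6J mice, with 6 libraries from mice given saline and 6 from mice given 2 mg/kg varenicline, a partial agonist of nicotinic acetylcholine receptors. All of the mice drank 20% ethanol in the Drinking-in-the-Dark procedure, a test of binge-like intake in which ethanol replaces water for 2 h, starting 3 h into the dark phase. The procedure ran for 3 cycles of 2 days. Every mouse received saline in the first cycle, and the assigned agent was injected 30 min before the drinking session of day 2 in each of the last 2 cycles. The striatum was taken at the end of the final session. No group without ethanol was part of the design, so both groups share the drinking history. No age is given for the mice, and nothing in the labels ties 1 library to 1 mouse, so the p-values cover spread among samples that may in part be technical. Replicate numbers only name the libraries.

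Dopamine is made from tyrosine in a pair of steps. Tyrosine hydroxylase, encoded by Th, makes L-DOPA and limits the rate, and aromatic L-amino acid decarboxylase, encoded by Ddc, turns L-DOPA into dopamine. The vesicular monoamine transporter VMAT2, encoded by Slc18a2, loads dopamine into synaptic vesicles, and the dopamine transporter, encoded by Slc6a3, takes released dopamine back into the terminal. The monoamine oxidases, encoded by the neighbouring X-linked genes Maoa and Maob, break it down at the outer mitochondrial membrane. The striatum receives a dense dopamine input from cells whose bodies, and most of whose mRNA, lie in the midbrain. Striatal tissue therefore holds the protein of the input with little of its transcript, while glia and other local cells transcribe the oxidases.

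The library totals ran from 13340420 to 27917715 counts. Of the 66 pairs of libraries, none agreed within sampling noise (lowest chi-square per degree of freedom 5.89). Values are CPM, the counts of a gene per 1e+06 counts of the library, scaled by TMM, a normalization for library composition. Fold changes are log2 ratios of varenicline to saline from edgeR's quasi-likelihood test, with p-values adjusted by the Benjamini-Hochberg method over the 15148 genes that passed the count filter. The markers of striatal projection neurons summed to 7316 to 11446 CPM in the saline libraries and 7858 to 12735 CPM in the varenicline libraries, so the labelled tissue was present in both groups. All 13 of these markers were higher with varenicline, 6 of them at an unadjusted edgeR p under 0.05. Of 10 oligodendrocyte markers 9 were higher, 4 of them at that p, and 1 was lower. Over all tested genes 7.26% were higher at that p. The part of these cells in the levels of the members was not tested. Marker sums differed between libraries. All 11 markers of cortical excitatory neurons were lower with varenicline, 10 of them at an unadjusted p under 0.05, where 9.63% of all tested genes were lower. The marker lists were chosen with earlier results of these data known. The sum of the cortical markers was 642 to 1185 CPM with saline and 122 to 458 CPM in 5 varenicline libraries, while varenicline 6, at 1008 CPM, lay among the saline libraries. That library also held the highest sum of hypothalamic markers, at 35.8 CPM, of which 27.8 CPM was Pomc, against at most 10.7 CPM in the other varenicline libraries. Markers of septum and pallidum summed to 95.2 CPM in varenicline 1 and 91.4 CPM in varenicline 3, and to 27.7 to 43.2 CPM in the other 10 libraries. In bulk tissue, fewer cells of a type and less RNA per cell cannot be told apart.

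No member passed an adjusted p of 0.05, as was true of all genes tested with edgeR (0 of 15148, 0%). Before adjustment, 3 of the 5 tested members had a p under 0.05, namely Ddc, Slc18a2 and Maob, and all 3 were higher with varenicline. Over all tested genes, 16.9% had an unadjusted p under 0.05, of which 7.26% were higher and 9.63% lower. In none of the 5 tested members did the groups separate fully, which 0.759% of tested genes did. DESeq2, another count model, called 3.1% of the genes it gave an adjusted p and none of the members. It gave no adjusted p to Slc18a2 and Slc6a3. The plot of CPM by library shows Maoa and Maob with the most counts, Ddc and Th with fewer, and Slc6a3 with the fewest, while Slc18a2 ranged from 5 counts in saline 2 to 77 in varenicline 1.

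**Figure D1:**
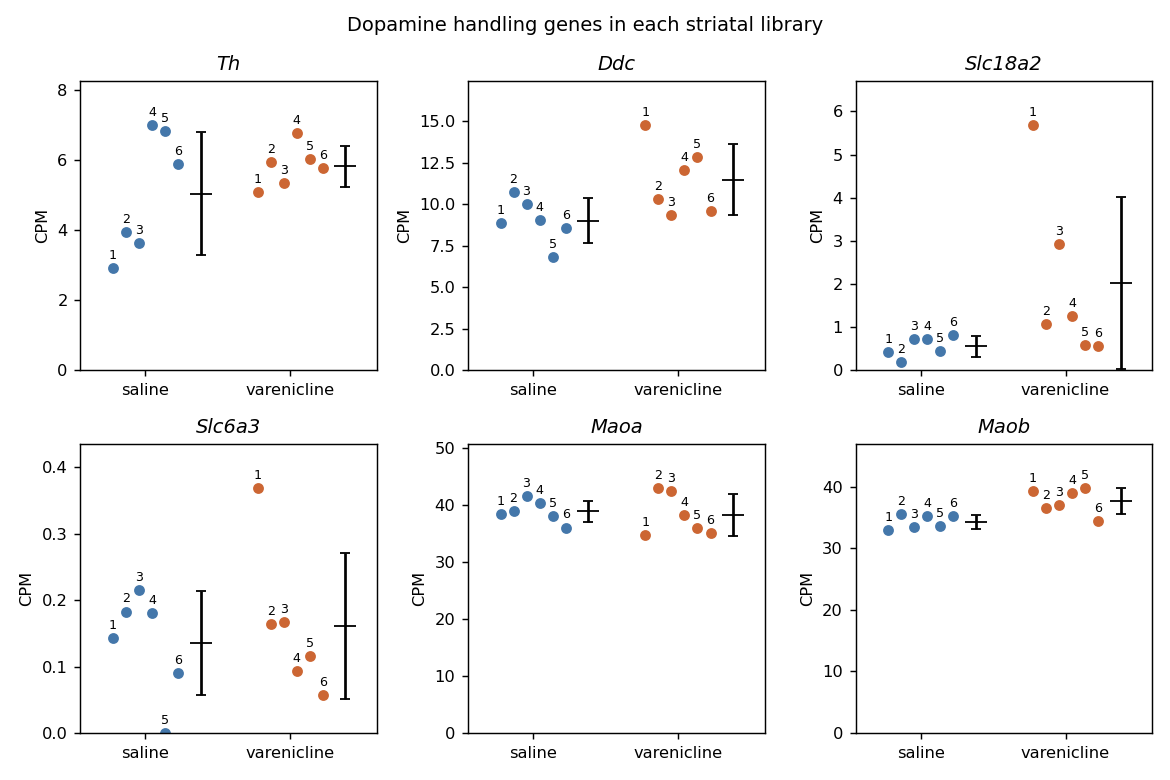
CPM (y axis, from 0, with a scale of its own per gene) of the 6 genes in each of the 6 saline (blue) and 6 varenicline (orange) libraries, with replicate numbers as names and black bars for the mean ± SD. Slc18a2 in varenicline 1 (5.68 CPM) and varenicline 3 (2.93 CPM) lies above all other libraries, and the groups overlap in every gene.

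Compared per kilobase of exon, Maob was the highest of the 6, with 14.2 ± 0.466 CPM per kilobase in saline and 15.6 ± 0.862 in varenicline (SD, n = 6 each). Maoa followed with 9.35 ± 0.456 and 9.20 ± 0.886, then Ddc with 4.31 ± 0.639 and 5.50 ± 1.02, and Th with 2.87 ± 1.00 and 3.32 ± 0.331. The transporters came last, Slc18a2 with 0.146 ± 0.0639 and 0.529 ± 0.525 CPM per kilobase, and Slc6a3 with 0.0392 ± 0.0228 and 0.0466 ± 0.0319. On this per-length scale, the ranges over all 12 libraries did not overlap between Maob (13.7 to 16.5) and Maoa (8.35 to 10.3), or between Maoa and Ddc (3.27 to 7.07). Those of Ddc and Th (1.67 to 3.98) overlapped, as did those of Slc18a2 (0.0481 to 1.49) and Slc6a3 (0 to 0.107). The standing of Slc18a2 depended on the values read. In the FPKM that the authors deposited, also per exon length, its range was 0.786 to 2.62. That range did not overlap the one of Slc6a3 (0 to 0.114) and did overlap the one of Th (1.84 to 4.29). On the counts, the mean level of Maob over the 12 libraries stood above 66.9% of the tested genes and that of Maoa above 53.6%. That of Ddc stood above 37.4%, that of Th above 28.6% and that of Slc18a2 above 4.001%. The transcripts of the transporters, whose proteins mark dopamine terminals, were thus on average the lowest of the 6 in the tissue that receives those terminals.

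**Figure D2:**
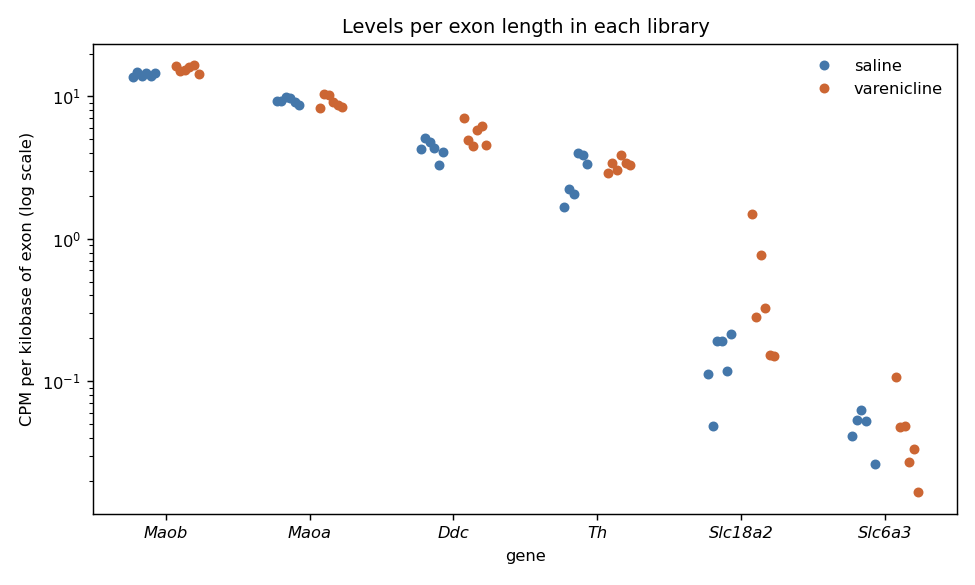
CPM per kilobase of exon (y axis, log scale) of each gene in each library, saline in blue and varenicline in orange. Levels run from 13.7 to 16.5 for Maob down to at most 0.107 for Slc6a3, whose library at 0, saline 5, cannot be drawn on a log axis.

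Th (ENSMUSG00000000214) lies on chromosome 7 at 142892776 to 142899966 on the minus strand, with 13 exons in the count table (build mm10). Slc18a2 (ENSMUSG00000025094) lies on chromosome 19 at 59260878 to 59296012 on the plus strand, with 16 exons. Their start regions share a feature that the choice of genes did not use. Among the RefSeq windows from 250 bases before to 50 bases after a gene's start (GRCm38.p6), those of Th and Slc18a2 each hold 1 full cAMP response element, TGACGTCA, the palindromic site bound by CREB and related factors. It was searched on both strands, and it occurs in 1.79% of the 32851 windows. The windows of Ddc, which has 2, Slc6a3 and Maoa do not hold these letters, and Maob was not matched. The stretches that lead up to the start of both genes are shown for this element, which is in capitals. The first is chr7:142899996-142900115 on the minus strand and the next is chr19:59260758-59260881 on the plus strand, both written 5′ to 3′ along the gene.
Th: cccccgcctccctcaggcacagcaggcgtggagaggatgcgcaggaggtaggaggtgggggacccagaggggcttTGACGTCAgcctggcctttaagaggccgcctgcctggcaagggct
Slc18a2: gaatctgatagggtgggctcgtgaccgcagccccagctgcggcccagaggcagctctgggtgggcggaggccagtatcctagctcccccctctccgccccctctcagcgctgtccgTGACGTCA
The first base of the element is 45 bases before the RefSeq start of Th and 4 bases before that of Slc18a2, where the element spans the start. The RefSeq start of Th lies upstream of 142899966, the boundary given above from the count table, so the element is farther from that boundary. The windows of Maoa, Slc18a2, Slc6a3 and Th hold 2, 2, 3 and 1 copies of the GC box GGGCGG, found on either strand in 35.7% of windows. A TATA box, TATAAA, found in 13.6% of windows, is in the more upstream window of Ddc. These matches describe letters only, since no binding or chromatin was measured.

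Th, which encodes the rate-limiting enzyme, differed between groups by less than the spread among saline libraries. The saline libraries 1 to 6 held 2.93, 3.95, 3.62, 6.997, 6.84 and 5.89 CPM, and the varenicline libraries 1 to 6 held 5.09, 5.96, 5.36, 6.76, 6.03 and 5.76 CPM. Saline 1, 2 and 3 were lower than every other library, and all varenicline libraries lay inside the saline range. The mean was 5.04 ± 1.76 CPM in saline and 5.83 ± 0.582 CPM in varenicline (SD, n = 6 each). The fitted difference in Th was 0.20 on the log2 scale (SE 0.193, edgeR adjusted p = 0.632). The sign was not stable: with the cortical marker score as a covariate and without varenicline 6, the difference was -0.14 (SE 0.379, edgeR adjusted p = 0.906). A limma-voom fit that weights libraries by their quality gave 0.46 for Th (adjusted p = 0.109). Of 13 markers of midbrain dopamine neurons, 7 passed the count filter and 6 did not. Among the latter, the transcription factor Foxa2 had 0 counts, which allows at most 0.109 to 0.221 CPM per library at 3 counts. Pitx3 had 6 counts over all libraries, En1 and Foxa1 had 7 each, Lmx1b had 2 and the nicotinic receptor subunit Chrna6 had 30. The sum over the 13 markers was 134 to 174 CPM with saline and 93.1 to 153 CPM with varenicline, and their part in the level of Th was not tested. Among the 7 detected markers, Slc10a4 measured 10.9 ± 2.00 CPM in saline and 13.0 ± 1.42 CPM in varenicline (unadjusted p = 0.0490, edgeR adjusted p = 0.294). Ret measured 5.65 ± 2.58 and 5.71 ± 2.89 CPM and Otx2 3.53 ± 2.33 and 4.28 ± 2.53 CPM, while En2 and Lmx1a had 337 and 156 counts in all. Otx2 was highest in varenicline 5, saline 2, varenicline 1 and saline 5, at 7.42, 7.28, 7.01 and 4.86 CPM. Choroid plexus markers summed to 1935, 1684, 1592 and 1329 CPM there, and to 69.2 to 633 CPM in the other libraries. Lmx1a was highest in the same libraries, and the part of choroid plexus in either gene was not tested. Most of the sum over the 13 dopamine neuron markers was Nr4a2 (65.2 ± 10.8 CPM in saline, 27.4 ± 19.7 CPM in varenicline) and Aldh1a1 (66.9 ± 5.61 and 67.8 ± 7.36 CPM), which other brain cells also express. The log2 difference of Nr4a2 was -1.25 (edgeR unadjusted p = 0.00464, adjusted p = 0.147). Nr4a2 held 52.4 to 82.4 CPM in saline, 60.6 CPM in varenicline 6 and 6.36 to 31.5 CPM in the other varenicline libraries. It was lowest in varenicline 3 and 5, where the cortical markers were also lowest, at sums of 122 and 165 CPM. The part of cortical cells in the Nr4a2 difference was not tested. Of the 7 markers 5 were higher and 2 lower with varenicline, 1 of each at an unadjusted p under 0.05.

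Ddc (ENSMUSG00000020182, chromosome 11, 11814101 to 11898144, minus strand, 16 exons) encodes the decarboxylase, which also serves serotonin synthesis and trace amines. The saline libraries 1 to 6 held 8.85, 10.7, 10.04, 9.06, 6.84 and 8.57 CPM of Ddc, and the varenicline libraries 14.8, 10.3, 9.33, 12.04, 12.9 and 9.59 CPM. Varenicline 1, 4 and 5 exceeded every saline library, and varenicline 2, 3 and 6 lay among them. The mean of Ddc was 9.01 ± 1.33 CPM in saline and 11.5 ± 2.12 CPM in varenicline, with 6 of 6 varenicline libraries above the saline mean. The difference was 0.34 on the log2 scale (SE 0.129, unadjusted p = 0.0181, edgeR adjusted p = 0.204). It stayed positive under all 28 other settings, between 0.26 without varenicline 1 and 0.64 with the cortical score as covariate and without varenicline 6. None of these settings brought the adjusted p of Ddc under 0.05 (0.0656 to 0.999). In the count table no other gene shared exon bases with Ddc. Th and Ddc, the successive steps of synthesis, showed no correlation past the threshold over the 12 libraries (Pearson r = -0.05, permutation p = 0.883, adjusted over 15 pairs 0.943; Spearman rho = -0.13, permutation p = 0.700, adjusted 0.828).

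Slc18a2 had the largest fitted fold change of the 6 on the deposited counts, but not with the septal score as a covariate or on log2 FPKM plus 1. Its saline libraries 1 to 6 held 6, 5, 17, 20, 11 and 18 counts, or 0.428, 0.183, 0.732, 0.725, 0.445 and 0.816 CPM. Its varenicline libraries held 77, 26, 70, 27, 10 and 10 counts, or 5.68, 1.07, 2.93, 1.2502, 0.579 and 0.571 CPM. Varenicline 1 and 3 stood far above the rest, varenicline 2 and 4 slightly above the saline range, and varenicline 5 and 6 within it. The mean was 0.555 ± 0.243 CPM in saline and 2.01 ± 2.00 CPM in varenicline (SD, n = 6 each). The fitted difference was 1.81 on the log2 scale (SE 0.548, unadjusted p = 0.00472, edgeR adjusted p = 0.147). Slc18a2 reached the count filter's level of 0.436 CPM in all 6 varenicline libraries and in 4 of 6 saline libraries. The filter asks for that level in 6 libraries, which the varenicline group met by itself and the saline group did not.

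The high Slc18a2 libraries were also the high libraries for septal and pallidal markers. All 7 of these markers (among them Dlk1, Nkx2-1 and Lhx8) were higher with varenicline at an unadjusted p under 0.05, with a median log2 fold change of 0.75, and none was at 0. Over all tested genes 7.26% were higher at that p. The marker list was chosen with earlier results of these data known, so its count is no independent result. Without varenicline 1 and 3, the Slc18a2 difference was 0.67 (SE 0.387, edgeR adjusted p = 0.549). With the mean log2 CPM of the 7 markers as a covariate it was 0.11 (SE 0.477, edgeR adjusted p = 0.967). Without varenicline 1 alone it was 1.23 (edgeR adjusted p = 0.249). Both the covariate and the pair left out were chosen after seeing the data. Without varenicline 6, the varenicline library with the most cortical marker and Pomc reads, Slc18a2 reached 2.01 with an edgeR adjusted p of 0.0212, in a fit that called 10.7% of all genes tested. The part of septal or pallidal cells in the Slc18a2 level was not tested beyond these values. Other monoamine cells also use VMAT2. No mast cell marker of 5 and no noradrenaline neuron marker of 4 passed the count filter, and the mast cell sum was at most 0.408 CPM with saline and 0.232 CPM with varenicline. Of the 4 serotonin neuron markers only Tph2 passed, with 1.595 ± 0.489 CPM in saline and 1.57 ± 0.374 CPM in varenicline, and Hdc, the enzyme of histamine cells, measured 3.75 ± 0.854 and 4.53 ± 1.16 CPM. The part of any such cells in the Slc18a2 level was not tested.

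**Figure D3:**
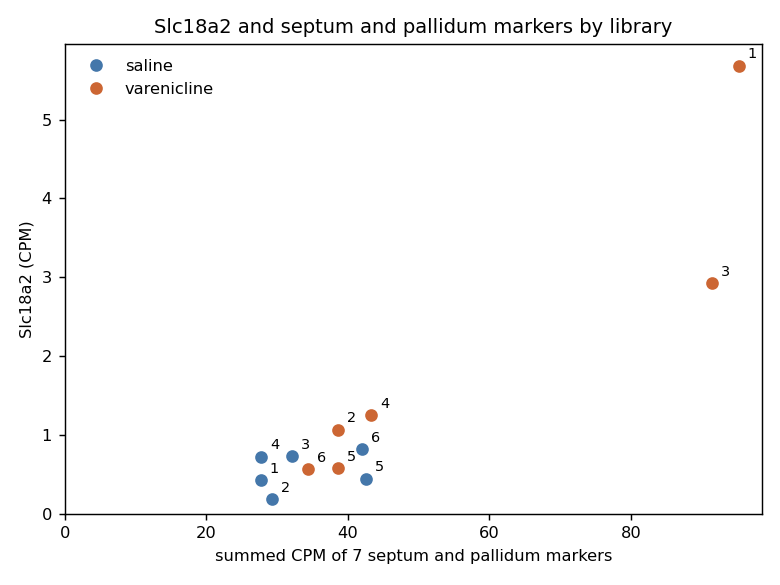
Slc18a2 in CPM (y axis) against the summed CPM of 7 septum and pallidum markers (x axis) in each library, saline in blue and varenicline in orange, labelled by replicate number. Varenicline 1 (95.2 CPM of markers, 5.68 CPM of Slc18a2) and varenicline 3 (91.4 and 2.93 CPM) lie apart from the other 10 libraries.

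The Slc18a2 value also depended on which deposited table was read. A second table holds Cuffnorm values, from which whole reads could be recovered for 98.4% to 98.9% of values per library (within 0.05 of a whole number). It gave Slc18a2 1229 reads against 297 in the count table, 4.14 times as many. The same ratio was 0.939 for Th, 0.995 for Ddc, 0.973 for Slc6a3, 0.999 for Maoa and 1.01 for Maob, and its median over 15124 genes was 0.986. Slc18a2 was one of 198 genes (1.31%) with over 2 times as many reads in the Cuffnorm table. The extra reads were present in every library at a similar level, 3.43 ± 0.619 CPM in saline and 3.74 ± 0.913 CPM in varenicline. On the recovered reads Slc18a2 measured 3.98 ± 0.516 CPM in saline and 5.76 ± 2.37 CPM in varenicline, and its difference was 0.53 on the log2 scale (SE 0.228, edgeR adjusted p = 0.250). Varenicline 1 and 3 remained its highest libraries there, at 9.37 and 7.28 CPM. Why the tables differ was not tested. In the count table no gene shared exon bases with Slc18a2, and Pdzd8, on the opposite strand, lay 71 bases past its end. The GENCODE vM21 annotation places 99 exon bases of the antisense gene Gm29261 over Slc18a2, and no source used here says whether counting used strand. Without strand, reads from the overlap cannot be told apart.

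**Figure D4:**
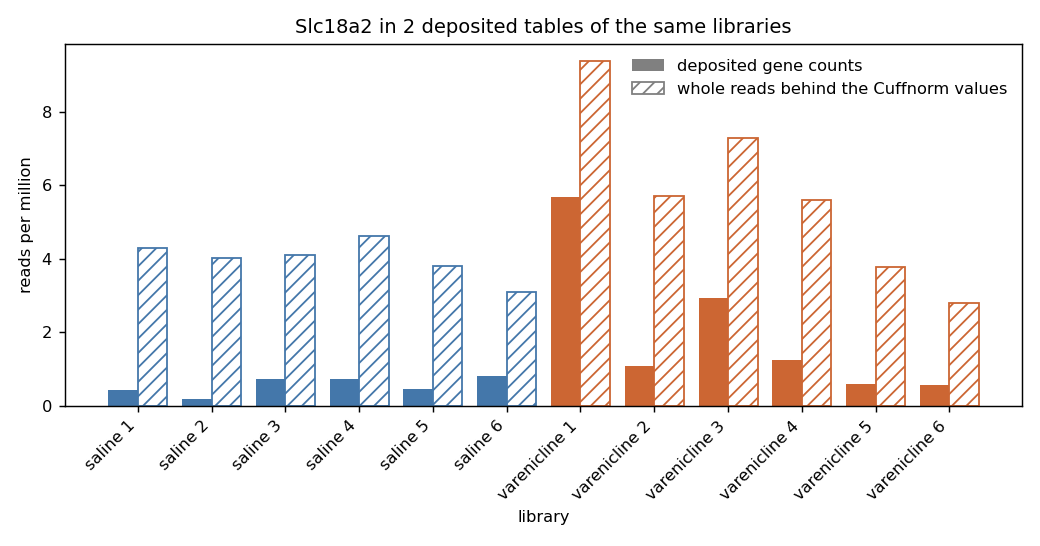
Reads in CPM (y axis, from 0) of Slc18a2 in each library, from the deposited gene counts (filled bars) and from whole reads behind the Cuffnorm values (hatched bars), saline in blue and varenicline in orange. The hatched bars are higher in every library, by 2.27 to 3.88 CPM in saline and 2.23 to 4.64 CPM in varenicline.

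Slc6a3 (ENSMUSG00000021609, chromosome 13, 73536747 to 73578672, plus strand, 15 exons), the classic marker of dopamine terminals, was barely detected as mRNA. It had 37 counts in all, 19 over the saline libraries and 18 over the varenicline libraries, and no library reached the count filter. The saline libraries 1 to 6 held 0.143, 0.183, 0.215, 0.181, 0 and 0.0906 CPM, and the varenicline libraries 0.369, 0.164, 0.167, 0.0926, 0.116 and 0.0571 CPM. Varenicline 1 was the highest and saline 5 the lowest, where 0 counts allow up to 0.121 CPM (3 counts). The mean of Slc6a3 was 0.135 ± 0.0789 CPM in saline and 0.161 ± 0.110 CPM in varenicline. In a fit without the filter the difference was 0.19 on the log2 scale (SE 0.609, edgeR adjusted p = 0.912). Without varenicline 1 the sign turned, to -0.14, and without saline 5 to -0.09. A difference of 1 log2 unit in either direction lies within 2 SE of this estimate and was not detectable at this depth.

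Maoa (ENSMUSG00000025037) spans 16619698 to 16687812 on the plus strand of chromosome X, and Maob (ENSMUSG00000040147) spans 16709281 to 16817366 on the minus strand, each with 15 exons, and their 3′ ends face each other. MAO-A oxidizes serotonin and noradrenaline as well as dopamine, while MAO-B is abundant in astrocytes. Maoa held 38.5, 38.9, 41.5, 40.4, 38.1 and 36.1 CPM in saline libraries 1 to 6 and 34.8, 43.0, 42.4, 38.3, 36.0 and 35.03 CPM in varenicline libraries 1 to 6. The varenicline libraries lay on both sides of the saline range, with 2 above it and 3 below. The mean of Maoa was 38.9 ± 1.90 CPM in saline and 38.3 ± 3.69 CPM in varenicline, a difference of -0.02 on the log2 scale (SE 0.0658, edgeR adjusted p = 0.896).

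Maob held 33.0, 35.5, 33.4, 35.3, 33.6 and 35.2 CPM in saline libraries 1 to 6 and 39.4, 36.6, 37.0, 39.0, 39.9 and 34.5 CPM in varenicline libraries 1 to 6. All varenicline libraries but varenicline 6 exceeded every saline library. The mean of Maob was 34.3 ± 1.12 CPM in saline and 37.7 ± 2.08 CPM in varenicline. The difference was small, 0.13 on the log2 scale (SE 0.0523, unadjusted p = 0.0208, edgeR adjusted p = 0.213). Without varenicline 6 it was 0.17 (edgeR adjusted p = 0.0462). The limma-voom fit gave Maob 0.16 with an adjusted p of 0.0303, and called 13.9% of all genes tested. With the cortical marker score as a covariate it was 0.07 (SE 0.0716, edgeR adjusted p = 0.999), lower by over 1.5 times. The 10 astrocyte markers summed to 5259 to 5724 CPM with saline and 5436 to 6041 CPM with varenicline. Of these markers 9 were higher, 3 of them at an unadjusted p under 0.05 (7.26% of all tested genes were higher at that p). Their median log2 fold change was 0.09, and no marker was at 0. Their part in the Maob difference was not tested.

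Because Maoa and Maob were counted in the same libraries, their ratio does not depend on the scaling between libraries. Per kilobase, Maob exceeded Maoa in all 12 libraries. The ratio in saline libraries 1 to 6 was 1.48, 1.58, 1.39, 1.51, 1.52 and 1.68, and in varenicline libraries 1 to 6 it was 1.96, 1.47, 1.504, 1.76, 1.91 and 1.70. The 3 highest ratios belonged to varenicline 1, 5 and 4, varenicline 6 lay just above the saline range, and varenicline 2 and 3 lay within it. The mean log2 ratio of Maob to Maoa was 0.61 ± 0.093 in saline and 0.77 ± 0.172 in varenicline, a difference of 0.16. The exact permutation test of this ratio, two-sided and over every way to assign 6 of the 12 libraries, gave p = 0.0823, where the smallest p possible is 0.00216. Without varenicline 2 the exact permutation test gave p = 0.0281, and without varenicline 3 p = 0.0390, with differences of 0.21 and 0.20. With each of the other 10 libraries left out, the exact permutation p was 0.0519 to 0.147, and it was highest without varenicline 1 (difference 0.12) and without varenicline 5 (difference 0.13). The oxidases themselves showed no correlation past the threshold (r = -0.23, permutation p = 0.454, adjusted 0.662; rho = -0.17, permutation p = 0.587, adjusted 0.801).

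Of all 15 pairs of members, Ddc and Maob alone had an r whose p passed 0.05 after adjustment over the pairs (r = 0.81, permutation p = 0.00113, adjusted 0.0169). Their rank correlation did not pass after adjustment (rho = 0.75, permutation p = 0.00675, adjusted 0.101). Without saline 5 and varenicline 1, the libraries farthest from the median of Ddc, r was 0.77, and after this step no pair passed. Within groups the r of Ddc and Maob was 0.35 over the 6 saline libraries and 0.84 over the 6 varenicline libraries, so the relation was weaker in saline; the difference was not tested. Both genes were higher in varenicline, so the pooled r includes the difference between groups. Th and Slc18a2, which share the response element, had an r of 0.23 (permutation p = 0.485, adjusted 0.662; rho = 0.12, permutation p = 0.718, adjusted 0.828). Over the 15 pairs r ran from -0.41 to 0.81, and in 6 pairs its sign turned when the 2 libraries farthest from the median of the first gene were left out.

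The genes whose levels followed each tested member most closely were named by Pearson r over the 12 libraries, as a description only. Both genes of a pair come from the same libraries and share their depth. The nearest 5 of so many tested genes also have a high r in part because they were picked for it. Nearest to Th were Trp53 (0.93), the clock output factor Dbp (0.92), Tbc1d10c (0.90), Ky (0.89) and Mir3072 (0.88). Nearest to Ddc were Ms4a6c (0.93), Ist1 (0.93), Sesn1 (0.92), the splicing factor Hnrnph1 (0.90) and the chaperonin subunit Cct3 (0.90). For Slc18a2 they were the transcription factor Ebf3 (0.92), Col25a1 (0.91), Tmem150c (0.90), Rftn2 (0.90) and Crkl (0.90). Without varenicline 1 and 3, these r values with Slc18a2 dropped to between 0.61 for Col25a1 and 0.77 for Ebf3, so part of the likeness lay in that pair of libraries. For Maoa they were Uri1 (0.91), Snx6 (0.90), Megf10 (0.87), Tmem54 (0.86) and Tbcc (0.85). For Maob they were Fam84b (0.94), Kif15 (0.92), Son (0.92), Rfwd3 (0.91) and Carhsp1 (0.91). Without varenicline 5 and 1 the r of Maob with these was 0.88 to 0.95, for genes picked with those libraries included. No gene was among the nearest 5 of more than 1 member, which says little for lists of 5 out of so many tested genes.

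The wider pathway was listed as 32 further genes, of which 24 passed the count filter. At an unadjusted p under 0.05, 1 was higher and 3 were lower with varenicline, none passed after adjustment, and the median log2 fold change was 0.03 against 0.01 over all tested genes. Over all tested genes 7.26% were higher and 9.63% lower at that p, so the share of these 24 genes was near the background. Among 6 tested enzymes of further breakdown, Sult1a1, a phenol sulfotransferase, measured 7.37 ± 1.61 CPM in saline and 11.8 ± 2.91 CPM in varenicline, a difference of 0.67 on the log2 scale (SE 0.169, edgeR adjusted p = 0.138). Akr1a1, an aldehyde reductase, measured 242 ± 9.50 and 219 ± 9.71 CPM (-0.14, SE 0.0446, edgeR adjusted p = 0.152), with all 6 varenicline libraries below the saline mean. No other gene of the breakdown list had an unadjusted p under 0.05.

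Of 5 partners of the hydroxylase and transporters, Syngr3, a vesicle protein that binds the dopamine transporter, measured 131 ± 7.34 CPM in saline and 119 ± 6.81 CPM in varenicline (-0.14, SE 0.0510, edgeR adjusted p = 0.199). Markers of cortical neurons, which also express Syngr3, were lower in 5 of the varenicline libraries; their part in the Syngr3 difference was not tested. In the tetrahydrobiopterin list, which supplies the cofactor of tyrosine hydroxylase, 6 of 7 tested genes had a positive fold change and none had an unadjusted p under 0.05. Pts, which makes a precursor of the cofactor, had 0.19 (SE 0.0947) and Qdpr, which regenerates it, had 0.08 (SE 0.0623), both as log2 fold changes. Of 12 other monoamine enzymes and transporters, 6 passed the count filter and none had an unadjusted p under 0.05. On the log2 scale the fold change of Hdc, which makes histamine, was 0.27 (SE 0.186), and the low-affinity uptake transporters Slc22a3 and Slc29a4 had 0.14 (SE 0.165) and 0.11 (SE 0.188). The noradrenaline transporter Slc6a2 had 9 counts over all libraries, the serotonin transporter Slc6a4 had 4 and dopamine beta-hydroxylase, Dbh, had 21. Of the plasma membrane monoamine transporters listed, the low-affinity carriers were therefore the better detected in this tissue.

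**Figure D5:**
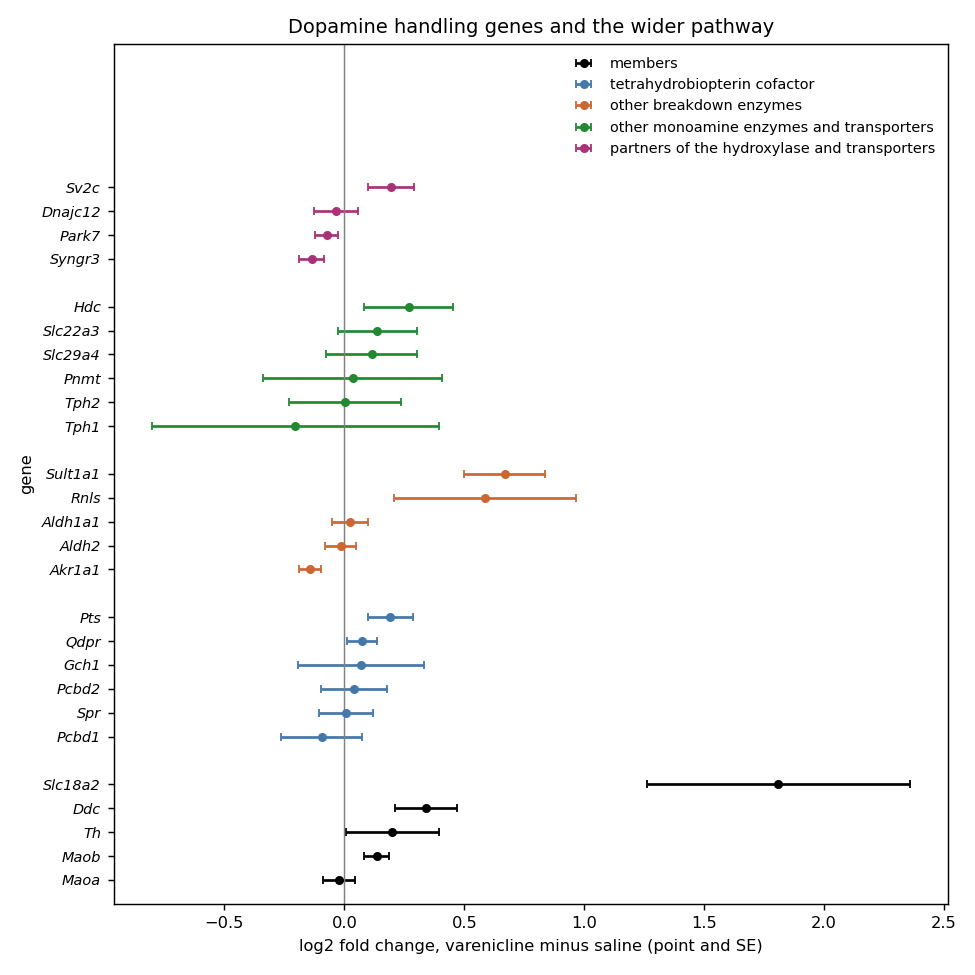
Log2 fold change of varenicline against saline (x axis, points with SE bars from edgeR) for the 5 tested members in black and 21 of the 24 tested pathway genes coloured by list (y axis, 1 gene per row). Slc18a2 lies farthest right at 1.81 with the second widest bar, and most other genes lie between -0.3 and 0.4.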

How the data were processed

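RNA sequencing libraries (Illumina TruSeq RNA kit, single reads of 150 nt, per the labels' protocols) came from striatum of 6 saline and 6 varenicline samples, grouped by the treatment label. Tests used the raw gene counts that the authors deposited, as whole numbers in 1 column per library, and no column was left unused. Per the submitters' processing notes, the build was mm10 and the tools were TopHat2, featureCounts, Cuffdiff, Cuffnorm, DESeq2, Trimmomatic and FastQC. No source used here gives their versions, the annotation or the strand setting. Alternatives used the FPKM values and the Cuffnorm signal that the authors deposited for each gene. Exon length came per the file headers, as a value given by the authors in bases.

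Genes were filtered with filterByExpr (minimum count 10), scaled by TMM and tested with edgeR 4.0.16 in R 4.3.3, with no covariate, over all 12 libraries and 15148 genes. SE is the log2 fold change divided by the square root of F. Alternatives used DESeq2 1.42.0 and limma 3.58.1 (log2 of FPKM plus 1 or 0.1), other scalings and filters, marker scores as covariates, and each library left out. Whole reads behind the Cuffnorm signal were recovered from the step of 1 read in each library. Correlations used log2 CPM with a prior count of 2 and 1e+05 permutations, two-sided. Limits from 0 counts cover counting error only. On counts simulated for this comparison over 15148 genes, edgeR recovered 40% of genes changed 1.25-fold, 78% at 1.5-fold and 98% at 2-fold, with 9 false calls over all sizes together. The changed genes were drawn only from genes with higher mean counts than Slc18a2 and Slc6a3 had, so these rates do not cover those members. Each gene was also simulated on its own, without the tissue marker differences that many genes share across these libraries. The rates can therefore be too high for the real comparison, for the other members too.

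All members were named; of pathway lists, genes with an unadjusted p under 0.05, or up to 3 per list with the smallest p; and per member the 5 most alike genes, predicted genes left out; some genes that this rule names are not reported here. The members and lists were chosen with earlier results of these data known. Start regions were from RefSeq (GRCm38.p6), where 5 of the 6 members matched.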

Additional observations from a re-analysis of the deposited data

Results flagged for a closer look

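In 7 of 98 sets of 6 libraries, 1 library stood apart by more than Dixon's 95% limit, where chance gives about 1 in 20, or 4.9 sets. Among the members this was Slc6a3 in varenicline 1, at 0.369 CPM against 0.0571 to 0.167 CPM in the other varenicline libraries. That value was 5 counts, as in saline 2, 3 and 4, against 1 to 4 counts in the other varenicline libraries. Varenicline 1 had the lowest total of all libraries, 13340420 counts, so each count weighs more there. It is also the library with the most Slc18a2 and Ddc in CPM. Slc29a4, a low-affinity monoamine transporter, stood apart in varenicline 5, at 13.6 CPM against 6.25 to 8.86 CPM. Park7 stood apart in saline 2, at 80.7 CPM against 72.9 to 75.6 CPM. Hypothalamic markers summed to 35.8 CPM in varenicline 6 against 7.58 to 10.7 CPM in the other varenicline libraries, of which Pomc made up 27.8 CPM. Ependymal markers summed to 68.6 CPM in saline 6 against 39.7 to 46.4 CPM in the other saline libraries. Oligodendrocyte markers summed to 13822 CPM in saline 6 against 11166 to 11756 CPM, and to 10530 CPM in varenicline 6 against 12898 to 13810 CPM. The part of these tissues in the levels of the members was not tested.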

How the results depend on the processing

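The number of genes past an adjusted p of 0.05 was 0 with edgeR but 387 with DESeq2, 2099 with limma-voom and sample weights, 12 with the cortical score and 242 with the hypothalamic score as a covariate. Leaving out each library gave 0 to 1628 genes, with 4 without varenicline 2 and 1628 without varenicline 6. The log2 fold change of Ddc kept its direction under all 28 alternatives, and its adjusted p stayed above 0.05, as in the main fit. Its unadjusted edgeR p, 0.0181 in the main fit, was 0.0866 with the cortical score and 0.0938 with the septal score as a covariate. Without varenicline 1 it was 0.0503, and in the other settings the unadjusted p was under 0.05. That of Th turned in 1, to -0.14 with the cortical score and without varenicline 6 (0.11 to 0.33 with each library left out). That of Slc18a2 ran from 1.23 to 2.01 with each library left out, and no value could be had with a filter of at least 1 CPM in 6 libraries. That of Slc6a3 turned to -0.29 with the septal score as a covariate and to -0.29 without varenicline 1 and 3, was 0.50 with the hypothalamic score and 0.83 with the cortical score and without varenicline 6, and ran from -0.14 to 0.36 with each library left out. That of Maoa turned in 5 alternatives. It was 0.0044 with the hypothalamic score and -0.10 with the cortical score, and ran from -0.0585 to 0.0132 with each library left out. That of Maob was 0.16 with limma-voom and 0.12 to 0.17 with each library left out. The ratio of Maob to Maoa ran from 0.12 to 0.21 with each library left out. Of the pairs of members, 1 passed after adjustment, 1 with a prior count of 0.5 and 0 without the 2 libraries farthest from the median. The covariate for septum and pallidum, the fit without varenicline 1 and 3 and the recovered reads were chosen after seeing the data. The cause of these changes was not tested. Depth limits Slc6a3 and Slc18a2, with 37 and 297 counts in all.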
